A study of Mus musculus with 9 samples.

Results

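The expanded T cell clones of 3 mouse melanomas were compared: those of a tumour from a mouse given anti-CD4, and those of 2 tumours captured together on a second cartridge. Cells that shared the V gene, the CDR3 bases and the J gene of their receptor beta chain formed a clone, and a clone of 10 or more cells was taken as expanded. This gave 17578 cells in 229 clones, of 30026 cells with a beta chain in 10784 clones. The anti-CD4 tumour held 107 expanded clones with 10233 cells, which were 83.2% of its beta chain cells. The tag 1 tumour held 67 with 3940 cells (61.4%), and the tag 2 tumour held 55 with 3405 cells (30.1%). At the limit of 10 cells stood 11, 7 and 2 clones of the anti-CD4 tumour, tag 1 and tag 2, and just under it, at 9 cells, 9, 9 and 4. Wherever 3 values follow each other, they are in this order of tumours.

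All mice were 8-week-old female C57BL/6 animals bearing B16F10, a transplantable melanoma line, under the skin, and tumours were taken on day 14. The anti-CD4 mouse received clone GK1.5, an antibody that depletes CD4+ cells, at 200 µg into the peritoneum on days 5 and 9. Of the 2 other mice, 1 was untreated and 1 received anti-PD-L1 (clone 10F.9G2) at the same dose and on the same days. No label states which sample tag, the antibody-borne barcode that marks a mouse within a cartridge, belongs to which of them, so they are called tag 1 and tag 2. The sort kept TCRbeta+ CD8+ CD4- cells and removed leukocytes from the blood and cells with CD11b, B220, NK1.1 or Ter119. Splenic T cells of Pmel-1 mice, a receptor transgenic strain, were mixed in once sorting was done, and their clone was left out. Each group is 1 mouse, and the anti-CD4 mouse had a cartridge of its own, so treatment, mouse and cartridge cannot be told apart and no test was made. The anti-CD4 cells carried 2 tags, 5 and 6, whose difference shows the technical spread within 1 mouse.

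A CD8+ T cell that meets its antigen divides into a clone of cells with the same receptor. Cells that express Tcf7, Il7r and Ccr7 keep a capacity to renew, and cells that express granzymes, chemokines and inhibitory receptors such as PD-1 and CTLA-4 are further along effector or exhausted differentiation. In tumours these states are known to lie on a continuum, and CD4+ cells, among them regulatory T cells, are known to act on it.

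The tumours differed in how far single clones dominated. In the anti-CD4 tumour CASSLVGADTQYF, named by the residues of its beta chain CDR3, held 2132 cells, or 20.8% of the expanded cells. In the tag 1 tumour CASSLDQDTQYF held 1485 cells, or 37.7%, and the 3 largest clones together held 64.2%. In the tag 2 tumour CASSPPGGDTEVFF held 450 cells, or 13.2%. Median clone sizes were 26, 17 and 32 cells. The CDR3 coding sequences of the largest clones are shown, 5′ to 3′, to identify their receptors: the leading 3 of the anti-CD4 and tag 1 tumours and the leading 2 of tag 2. Capitals mark the bases that the deposited node tables assign to neither the V nor the J segment.
anti-CD4 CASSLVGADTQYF (TRBV16, TRBJ2-5): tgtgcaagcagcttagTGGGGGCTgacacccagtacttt
anti-CD4 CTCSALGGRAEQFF (TRBV1, TRBJ2-1): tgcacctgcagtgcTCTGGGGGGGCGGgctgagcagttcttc
anti-CD4 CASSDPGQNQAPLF (TRBV13-3, TRBJ1-5): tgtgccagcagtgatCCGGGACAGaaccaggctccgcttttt
tag 1 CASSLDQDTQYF (TRBV12-1, TRBJ2-5): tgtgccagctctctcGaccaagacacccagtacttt
tag 1 second clone (TRBV4, TRBJ2-3): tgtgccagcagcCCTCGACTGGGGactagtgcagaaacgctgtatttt
tag 1 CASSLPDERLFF (TRBV3, TRBJ1-4): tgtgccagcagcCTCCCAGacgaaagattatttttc
tag 2 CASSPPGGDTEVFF (TRBV5, TRBJ1-1): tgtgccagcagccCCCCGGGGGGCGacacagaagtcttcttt
tag 2 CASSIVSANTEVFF (TRBV19, TRBJ1-1): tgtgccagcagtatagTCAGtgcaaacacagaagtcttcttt

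The leading tag 1 clone had 1 base between V and J. The median was 10 over the 81 anti-CD4 clones whose segment ends are listed, and 9 over 40 tag 1 and 43 tag 2 clones. CDR3 length was alike, with a median of 14 residues in each tumour and ranges of 10 to 18, 9 to 16 and 9 to 17. TRBV19 (chr6:41178589-41179048 of GRCm38) was used by more expanded clones than any other V gene in the anti-CD4 tumour, 26 of 107 (24.3%), and in tag 2, 8 of 55 (14.5%). In the tag 1 tumour it was used by 4 of 67 (5.97%), where TRBV13-1 and TRBV5 led with 8 clones each. Over clones of any size its share was 9.29%, 6.8% and 7.08%.

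The alpha chains, which played no part in choosing the clones, shared a sequence form. The leading alpha chain of a clone was its most frequent one by CDR3 bases, V and J segment. Of the expanded anti-CD4 clones, 33 of 107 (30.8%, exact 95% interval 22.3 to 40.5) had the leading alpha chain CALGxDTNAYKVIF, where x is any residue. The number was 2 of 67 under tag 1 (2.99%, 0.364 to 10.4) and 9 of 55 under tag 2 (16.4%, 7.77 to 28.8). Of the 2 tag 1 clones, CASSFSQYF, with 17 cells, was also 1 of the 9 tag 2 clones, where it had 180 cells. Only 30.8% of its tag 1 cells with an alpha chain carried the leading residues, 23.1% by bases and segments. The other, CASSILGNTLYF with 40 cells, had the beta chain and alpha residues of an anti-CD4 clone of 14 cells with the form. By residues alone the anti-CD4 TRBV19 clone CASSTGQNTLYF also led with the form, in 52.9% of its cells with an alpha chain, but it is counted without it. The clones with the form held 56.2%, 1.45% and 29% of the expanded cells. All intervals cover counting error only, since the clones of a mouse are not replicates of a treatment. The form was chosen for description after it was seen in these data.

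The J segment of the form is TRAJ30 (chr14:54189866-54189924, in the alpha locus). Its V segment was called TRAV6-7-DV9 in 22 and TRAV6D-7 in 11 anti-CD4 clones, and TRAV6D-7 in all of the 2 tag 1 and 9 tag 2 clones. These V segments are close copies, so the choice between them is uncertain. Among cells with an alpha chain, TRAJ30 was found in 65.2%, 3.33% and 39.8% of cells in expanded clones. Cells of a clone share their receptor, so large clones weigh most in these shares. Counted by clone, TRAJ30 led in 42 of 107 (39.3%), 5 of 67 (7.46%) and 14 of 55 (25.5%). In clones of 1 cell the shares were 8.57%, 5.55% and 7.03%. TRAJ30 was thus more frequent in expanded than in single cells of the anti-CD4 and tag 2 tumours and not of tag 1. Of the added Pmel-1 cells of the anti-CD4 cartridge, 29 of 485 with an alpha chain (5.98%) carried the form. Reads that stray between cells were not tested for their part in these shares.

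Different bases encoded the same alpha residues. By bases and segments, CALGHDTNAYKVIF was the leading alpha of 18 anti-CD4 clones with 18 different beta CDR3s, of 1 tag 1 clone and of 6 tag 2 clones. In the anti-CD4 clones the leading chain was carried by a median of 66.7% of cells with an alpha chain (lowest 46.7%). In the tag 2 clones it was carried by 92.8% (lowest 72.5%). The coding forms of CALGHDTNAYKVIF are printed because they show the same residues reached with different bases, within a mouse and in separate mice. The capital is the base that differs between them, the last of a glycine codon.
T form, 10 anti-CD4 and 2 tag 2 clones: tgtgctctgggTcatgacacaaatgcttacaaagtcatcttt
G form, 4 anti-CD4, 1 tag 1 and 3 tag 2 clones: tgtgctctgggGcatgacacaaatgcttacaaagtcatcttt
A form, 2 anti-CD4 clones: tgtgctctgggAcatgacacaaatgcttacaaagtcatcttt
C form, 2 anti-CD4 and 1 tag 2 clone: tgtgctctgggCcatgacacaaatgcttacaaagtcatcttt

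The alpha form and TRBV19 went together. TRBV19 was the beta V gene of 23 of the 33 anti-CD4 clones with the form (69.7%, exact 95% interval 51.3 to 84.4). It was that of 3 of the other 74 (4.05%), among them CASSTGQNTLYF, which had the form by residues alone. Under tag 2 it was 6 of 9 (66.7%, 29.9 to 92.5) against 2 of 46, and under tag 1 it was 1 of 2 against 3 of 65. The residue at x was H in 18, D in 7, G in 7 and E in 1 of the anti-CD4 clones. Sequencing errors of a larger clone could pass for a clone 1 base away. By beta chain, 0, 1 and 1 expanded clones lay that near to a larger one of the same V, J and length. The alpha coding forms, which differ by 1 base, were not checked in this way.

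**Figure D1:**
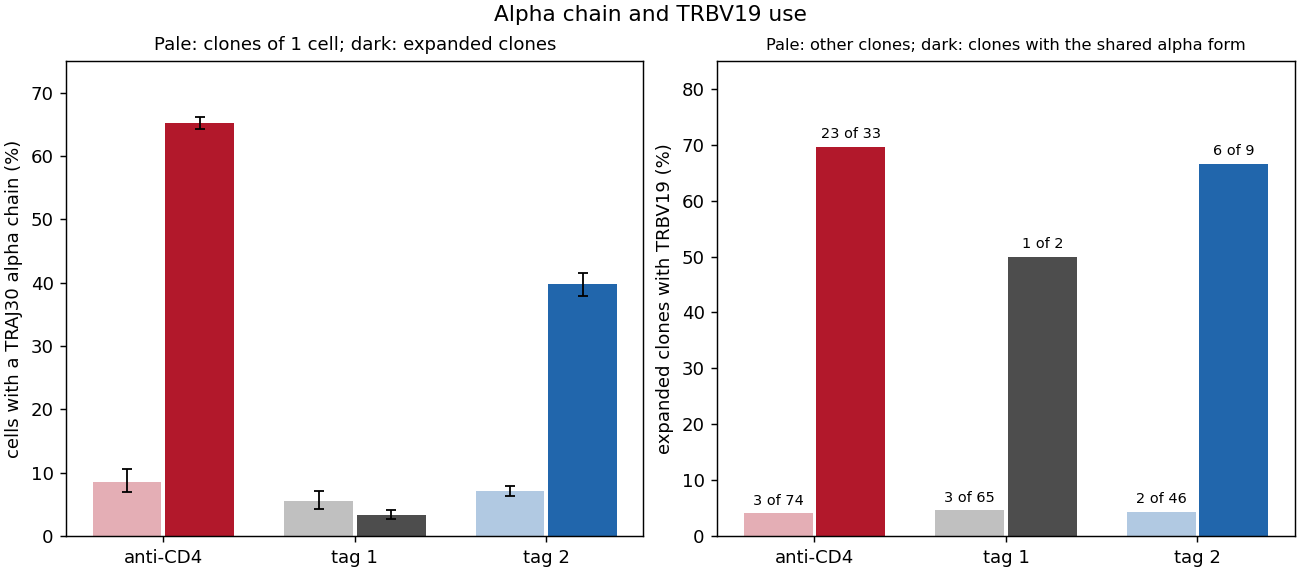
Left, share of cells with a TRAJ30 alpha chain (percent of cells with an alpha chain, bars with exact 95% counting intervals) in clones of 1 cell (pale) and in expanded clones (dark). The intervals count the cells of a clone as separate, although they share a receptor. Right, share of expanded clones that use TRBV19 (percent) among clones without (pale) and with (dark) the shared alpha form. The dark bars stand at 65.2% and 39.8% on the left, and at 69.7% and 66.7% on the right, for the anti-CD4 and tag 2 tumours.

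Gene levels were read from a targeted immune panel as counts of sequencing reads, not molecules. The expanded clones held 252753156, 84714666 and 121646070 panel reads, with medians of 22211, 18484 and 32839 per cell. For each clone the reads of a gene were divided by all panel reads of the clone and scaled to 1000000 reads (CPM), and the mean over clones, each with equal weight, was compared. A gene was counted where this mean differed 2-fold or more in the same direction against tag 1 and against tag 2, among the 342 genes with a mean of 10 CPM or more over the 3 tumours. Both comparisons use the same anti-CD4 clones and are not independent. Log2 ratios are given against tag 1 first and tag 2 second.

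Against tag 1, 42.4% of the genes differed 2-fold or more (20.8% higher, 21.6% lower in the anti-CD4 clones). Against tag 2 36.3% did (14.9% higher, 21.3% lower), and against both 28.1%. Tags 2 and 1, mice of 1 cartridge, differed in 20.8%, and tags 5 and 6 of the anti-CD4 mouse in 9.65%. Among the 270 genes of at least 50 CPM the shares were 24.4% against both tumours and 4.44% between tags 5 and 6. The median absolute log2 ratio was 0.82 against tag 1, 0.63 against tag 2, 0.41 between tags 2 and 1 and 0.13 between tags 5 and 6. The anti-CD4 clones thus lay further from either other tumour than these lay from each other.

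**Figure D2:**
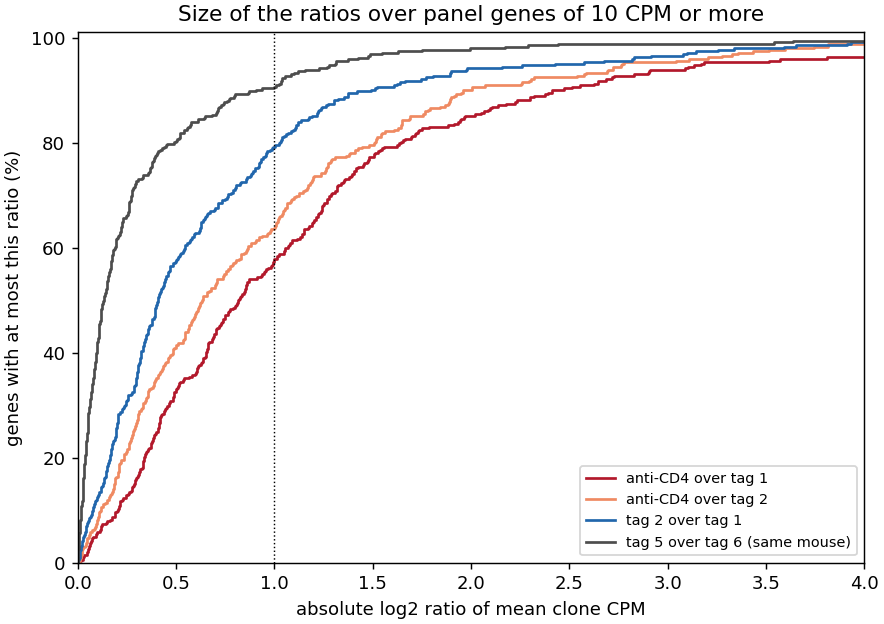
Cumulative share of genes (percent, vertical) by absolute log2 ratio of mean clone CPM (horizontal) for 4 pairs of cell sets, with a dotted line at 2-fold. The curve of tags 5 and 6 rises steepest and the anti-CD4 curves slowest, with median absolute ratios of 0.13 between tags 5 and 6 and 0.82 against tag 1.

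In 39 genes (11.4%) the anti-CD4 mean was higher against both tumours, and in 57 (16.7%) it was lower. The higher genes included granzyme B, chemokines and interferon-induced genes, beside genes of macrophages. The lower genes included transcription factors and receptors of naive and memory T cells. After median-of-ratios scaling 46 were higher and 44 lower, so that the higher genes made up 51.1% of those counted in place of 40.6%. That scaling moved the median log2 ratio of all genes from -0.12 to 0.00 against tag 1 and from -0.12 to 0.06 against tag 2.

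**Figure D3:**
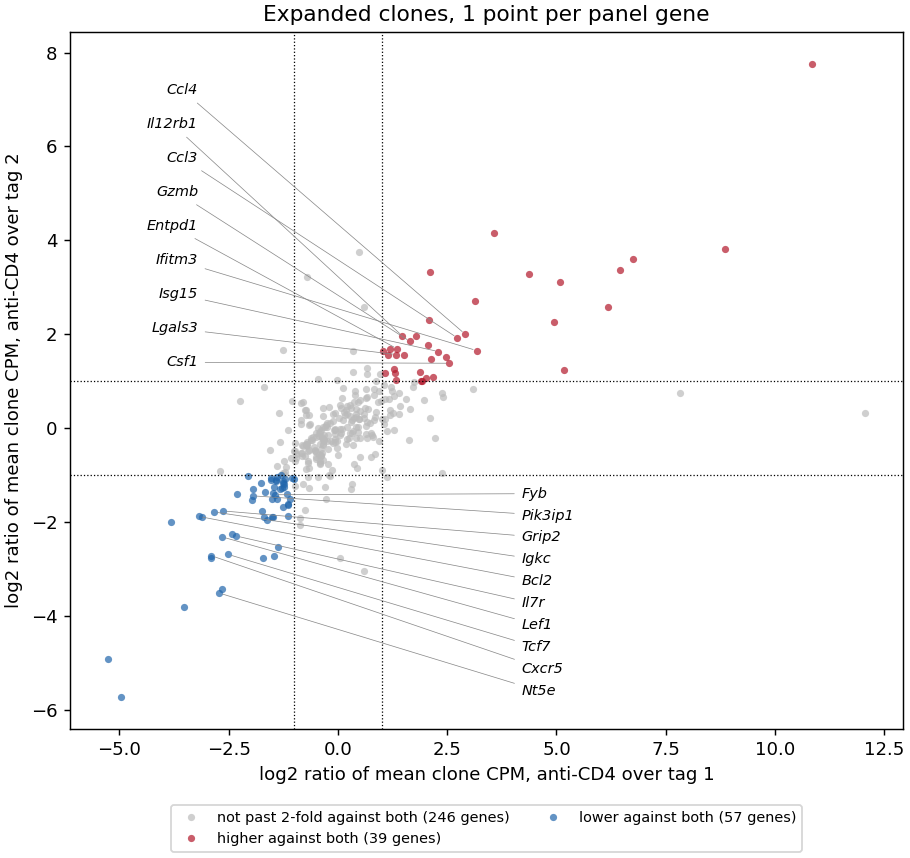
Log2 ratio of mean clone CPM of the anti-CD4 tumour over tag 1 (horizontal) and over tag 2 (vertical), 1 point per gene, with dotted lines at 2-fold. The 39 higher and 57 lower genes are coloured, and genes chosen by the naming rule that are reported here carry their symbols.

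Tcf7, which encodes TCF-1, the transcription factor of memory and stem-like T cells (chr11:52246527-52283383), was low in nearly every anti-CD4 clone. Its level was 0, 173 and 2125 CPM (lowest, median, highest clone) in the anti-CD4 tumour, 117, 2253 and 5089 CPM under tag 1, and 39.9, 2098 and 9096 CPM under tag 2. Of 107 anti-CD4 clones 0 exceeded the tag 1 median and 1 the tag 2 median, while the ranges overlapped. The means were 390.1 ± 492, 2225 ± 1228 and 2524 ± 1823 CPM (SD over clones), log2 ratios of -2.51 and -2.69, with 0.12 between tags 5 and 6. Cells with at least 1 Tcf7 read were 10.5, 61.9 and 54.8% of the expanded cells, 8.40, 54.0 and 48.0% after each cell was thinned to 4000 reads, and 92.2% of the added Pmel-1 cells. So the tumours kept their order when cells had equal depth.

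Il7r, the receptor of the survival cytokine IL-7 (chr15:9506159-9529941), was also low in most anti-CD4 clones. Its lowest, median and highest clone levels were 0, 437 and 7744 CPM in the anti-CD4 tumour, 6.85, 2743 and 11980 CPM under tag 1 and 191, 2873 and 12194 CPM under tag 2. The ranges overlapped, but only 6 anti-CD4 clones exceeded the tag 1 median and 6 the tag 2 median. The log2 ratios were -2.32 and -2.30, with -0.43 between tags 5 and 6.

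Of the 7 genes listed for naive or central memory cells 5 were measured, and 4 were 2-fold lower against both tumours (Tcf7, Lef1, Il7r and Ccr7). The list medians were -2.32 and -2.30, beside -0.12 and -0.12 over all genes. Lef1, a partner of TCF-1, had log2 ratios of -2.65 and -2.32 at mean levels of 12.5, 77.9 and 62.3 CPM. Ccr7, the receptor that guides T cells to lymph nodes, had clone medians of 457, 1199 and 6412 CPM and ratios of -1.14 and -1.87, with -0.70 between tags 5 and 6. In clones of 10 to 49 cells its ratio against tag 1 was -0.75.

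**Figure D4:**
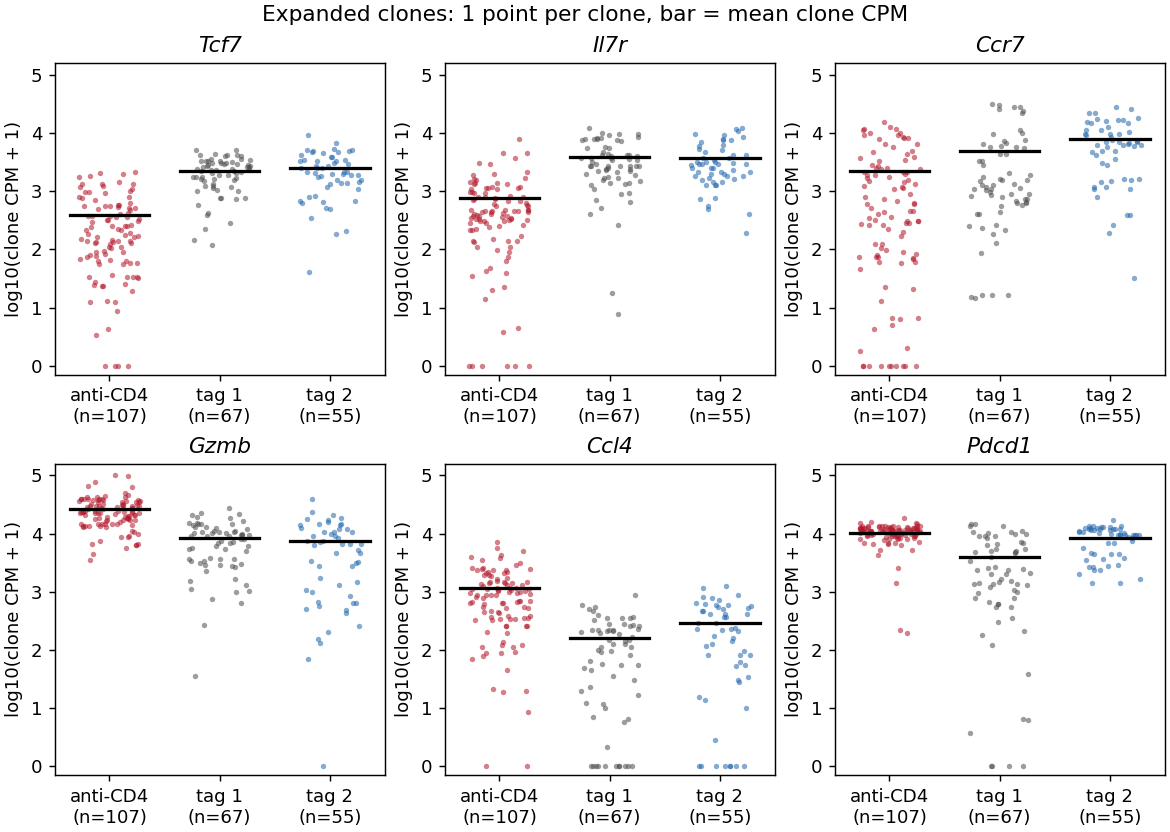
Level of 6 genes in each expanded clone (log10 of clone CPM + 1, 1 point per clone) by tumour, with the mean clone CPM as a bar. Tcf7 lies lower in the 107 anti-CD4 clones (median 173 CPM) than under tag 1 (2253 CPM) and tag 2 (2098 CPM), and Gzmb higher (medians of 23021, 7917 and 6368 CPM).

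Precursor exhausted, or stem-like, cells are known as the renewing pool of exhausted CD8+ cells. Of 15 genes listed for them 12 were measured and 8 were lower against both tumours, with list medians of -1.5 and -1.91. Besides the 4 genes above these were Cxcr5, Cd28, Il6ra and Tnfsf8. Cxcr5, a follicle-homing receptor that marks this state, was at 0 in 58 of 107, 21 of 67 and 16 of 55 clones, with means of 49, 366 and 323 CPM and ratios of -2.90 and -2.72. Cd28, the main costimulatory receptor, had -1.54 and -1.10, and against tag 2 -0.93 with TMM scaling and -0.90 with all cells summed. The members that were not 2-fold lower against both included the chemokine Xcl1 (0.31 and -1.20) and the costimulatory receptor Icos (0.07 and -0.10).

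Other lower genes had different roles. Bcl2, an inhibitor of cell death (chr1:106538176-106714290), had clone medians of 31.1, 449.9 and 148 CPM and ratios of -3.19 and -1.88, and 1 of 107 anti-CD4 clones exceeded the tag 1 median. Nt5e, which encodes the ectoenzyme CD73, had means of 30.1, 198 and 344 CPM and ratios of -2.72 and -3.52. Pik3ip1, a restraint on PI3K signalling, had -1.95 and -1.45, and -0.69 against tag 2 with all cells summed, so that large clones weigh more. Fyb, an adaptor of T cell receptor signalling, had -1.45 and -1.42. Kit, the stem cell factor receptor and the measured member of the neutrophil or mast cell markers, was at 0 in 77 of 107, 26 of 67 and 15 of 55 clones, with means of 10.5, 328 and 556 CPM, though tags 5 and 6 also differed by -1.16. Grip2, a scaffold protein gene, separated the tumours at a low level, with clone medians of 46.4, 311 and 156 CPM, and all 67 tag 1 clones lay above the anti-CD4 median. Igkc, an immunoglobulin light chain gene of B cells, was also among the lower genes at -2.83 and -1.79.

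Gzmb, which encodes the killing protease granzyme B (chr14:56258836-56262334), was higher in most anti-CD4 clones. Its lowest, median and highest clone levels were 3544, 23021 and 99582 CPM in the anti-CD4 tumour, 35.3, 7917 and 27121 CPM under tag 1 and 0, 6368 and 39384 CPM under tag 2. The ranges overlapped, yet 99 anti-CD4 clones exceeded the tag 1 median, 103 the tag 2 median, and 44 lay above every tag 1 clone. The means were 26378 ± 16301, 8394 ± 6144 and 7348 ± 7620 CPM, ratios of 1.65 and 1.84, with -0.11 between tags 5 and 6. Cells with a Gzmb read were 90.6, 64.5 and 49% of the expanded cells (88.0, 59.7 and 41.3% thinned) and 42.1% of the added Pmel-1 cells.

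The other cytotoxic genes did not pass the fold with Gzmb. Of 12 measured, Gzmb alone was higher against both tumours and none was lower against both, and the list medians were -0.12 and 0.20. Nkg7, a granule protein, had 0.83 and 0.82, under 2-fold, although 70 of 107 anti-CD4 clones lay above every tag 1 clone and 87 above every tag 2 clone. Prf1, which encodes perforin, had 0.66 and 0.12 at 51.7, 32.6 and 47.6 CPM. Gzmk had -0.44 and 1.05, below tag 1 and above tag 2. Gzma had -1.05 and 0.57, but its direction turned with the clone sizes included: it was 0.37 against tag 1 in clones of 20 or more cells and -1.41 against tag 2 in clones of 5 or more. The tag tumours themselves differed there, with -1.62 for Gzma and -1.49 for Gzmk (tag 2 over tag 1). Gzmm had -2.69 and -0.92.

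Ccl3 and Ccl4, chemokines that attract leukocytes to inflamed tissue, were higher. Ccl4 (chr11:83648624-83664683) had lowest, median and highest clone levels of 0, 868 and 7042 CPM in the anti-CD4 tumour, 0, 112 and 882 CPM under tag 1 and 0, 207 and 1269 CPM under tag 2. The ranges overlapped at their low ends, and 51 anti-CD4 clones lay above every tag 1 clone and 36 above every tag 2 clone. The log2 ratios were 2.91 and 2.0, with 0.28 between tags 5 and 6. Ccl3 had 2.73 and 1.92, and 0.79 against tag 2 with all cells summed.

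Of 15 effector cytokines and chemokines measured, 4 were higher against both tumours (Ccl3, Ccl4, Csf1 and Il10) and none lower, with list medians of 0.86 and 0.46. Ifng, which encodes interferon gamma, had means of 4996, 1506 and 2530 CPM and ratios of 1.73 and 0.98, just under 2-fold against tag 2. Tnf had 1.43 and 0.46. Csf1, a growth factor of macrophages, had 2.55 and 1.38, and 0.079 against tag 2 with all cells summed. Il10 had 2.10 and 3.33, with 1.04 between tags 5 and 6. Ccl5 had -0.75 and 0.39, and -0.009 against tag 2 in clones of 5 or more cells. Of 12 cytokine receptors, Il12rb1, a chain of the IL-12 receptor, was higher (1.47 and 1.96), Il7r, Il6ra and Il1rl1 were lower, and the medians were -0.77 and -0.40.

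The inhibitory receptors depended on the tumour of comparison. Of 10 measured, 2 were higher against both (Ctla4 and Entpd1), 5 against tag 1 and 2 against tag 2, with list medians of 0.96 and 0.36. Pdcd1, which encodes PD-1 (chr1:94038305-94052553), had lowest, median and highest clone levels of 192, 10842 and 18328 CPM in the anti-CD4 tumour, 0, 2045 and 14797 CPM under tag 1 and 1411, 9429 and 17189 CPM under tag 2. The anti-CD4 clones lay above most tag 1 clones and largely overlapped those of tag 2, with ratios of 1.4 and 0.31. Lag3 had 1.65 and 0.41, Tigit -0.19 and 0.10, and Havcr2, which encodes TIM-3, 0.39 and 0.70. Cells with a Pdcd1 read were 91.7, 34.2 and 83.1% of the expanded cells, beside 19.7% of the Pmel-1 cells. Cells with a Havcr2 read were 60.2, 19.6 and 42.8%, beside 8.90%.

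Ctla4, which encodes CTLA-4 (chr1:60909025-60915832), passed 2-fold against both. Its lowest, median and highest clone levels were 2479, 14454 and 63327 CPM in the anti-CD4 tumour, 315, 3349 and 13017 CPM under tag 1 and 1965, 7381 and 13368 CPM under tag 2. No clone of either tag tumour reached the anti-CD4 median. The ratios were 1.91 and 1.01, and against tag 2 the value was 0.97, under 2-fold, without the clones found under both tags 1 and 2. It was 0.97 by the median over clones and 0.93 with cells thinned to 4000 reads. Entpd1, which encodes the ectoenzyme CD39, had clone medians of 821, 242 and 153 CPM and ratios of 1.35 and 1.69. Btla, on the same list, had -0.87 and -1.91.

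Of 14 interferon-induced genes, 12 had log2 ratios above 0 against both tumours and 4 passed 2-fold, among them Isg15, Mx1 and Cxcl9, with list medians of 0.60 and 0.89. With all cells summed 8 were above 0 against both. Cxcl9, a chemokine, had 3.57 and 4.16, and 0.97 and 0.97 with means of log2(CPM + 10). Isg15, a ubiquitin-like protein made on interferon signalling (chr4:156199424-156200818), had lowest, median and highest clone levels of 26.6, 1566 and 7655 CPM in the anti-CD4 tumour, 0, 322 and 1712 CPM under tag 1 and 0, 529 and 4268 CPM under tag 2. The ranges overlapped, and 102 anti-CD4 clones exceeded the tag 1 median and 92 the tag 2 median. Its ratios were 2.30 and 1.63, with -0.06 between tags 5 and 6. Mx1, an antiviral GTPase, had 1.15 and 1.54, and 0.51 against tag 1 over the clones found in the matched lymph node. Ifitm3, an interferon-induced gene outside the list, had 3.17 and 1.65. Irf7 had 0.29 and 0.43, and Cxcl10 had -0.65 and -1.27, with 0.35 against tag 1 in clones of 5 or more cells. Ifit3 and Ifit3b, and Ifi204 and Ifi211, are close copies that may share reads.

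Of 8 cell cycle genes 2 were higher against both tumours, and the list medians were 0.76 and 0.50. Top2a, a topoisomerase of dividing cells, had 1.32 and 1.17, and 0.71 against tag 2 with all cells summed. Pclaf, which encodes a PCNA-binding factor, had 2.18 and 1.09, and 0.63 against tag 2 with all cells summed. Mki67, the common marker of dividing cells, had 1.24 and 0.79, and cells with a Mki67 read were 25.7, 7.82 and 23.4% of the expanded cells (23.0, 6.8 and 20% thinned), beside 5.99% of the Pmel-1 cells. The replication genes Pcna (-0.06 and -0.13), Mcm2 (0.05 and -0.15) and Mcm4 (-0.12 and -0.31) lay near 0. By the share of cells with a Mki67 read the anti-CD4 tumour stood close to tag 2 and above tag 1.

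Receptors of migration and residency differed in both directions. Of 14 chemokine receptors and adhesion molecules 3 were higher, among them Cxcr6 and Ccr2, and Ccr7 was lower, with list medians of -0.07 and -0.30. Cxcr6, known for retaining T cells in tissue, had 1.07 and 1.17, and 0.86 against tag 2 with all cells summed. Ccr2 had 1.02 and 1.65, and 0.97 against tag 1 without the clones found under both tags 1 and 2. Cd69, an activation and residency marker, was lower at -1.47 and -1.26. Itgae, which encodes the integrin CD103, had 0.61 against tag 1 and -3.05 against tag 2, and was at 0 in 61 of 107, 44 of 67 and 11 of 55 clones. Lgals3, which encodes galectin-3, was higher at 1.34 and 1.56.

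Several lists had medians within 2-fold in both comparisons. The 8 costimulatory receptors had -0.07 and -0.35, with Cd28 the only gene past the fold against both. The 10 genes of T cell receptor signalling and AP-1 had -0.32 and -0.51, with Cd69 lower, while Junb had 1.19 and 0.27 and Dusp1 1.56 and 0.62. The 11 transcription factors had -0.42 and -0.56, with Tcf7, Lef1 and Ikzf2 lower and Eomes at -1.55 and -0.48. Ikzf2, which encodes Helios, had -1.36 and -2.54, and -0.38 against tag 1 by the median over clones. The 4 survival genes had -0.92 and -0.94, with Bcl2 and Fas lower. The class I gene H2-K1 had -0.58 and -0.26, and no anti-CD4 clone exceeded the tag 1 median, but its reads may be shared with close copies. The 6 residency genes had medians of 0.06 and -0.42, with Cxcr6 higher and Cd69 lower. The 5 class II genes differed between the comparisons, with medians of 1.93 and 0.74, and H2-Aa was higher against both.

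Short-lived effector genes showed how far the tag tumours lay apart. Of 6 measured, Itgam, also a macrophage marker, alone was higher against both, and the medians were -0.33 and 0.97. Klrg1, a receptor of terminal effector cells, had clone medians of 362, 935 and 2.94 CPM, so that its ratio was -0.70 against tag 1 and 3.21 against tag 2. Itgax had -1.27 and 1.65 in the same order, and Tbx21, which encodes the effector factor T-bet, 0.08 and 0.43. The 7 Ly49 and NK-type receptors had medians of -1.75 and -1.18, with Klra1, Klra6, Klra7 and Klrc2 lower, but the Klra genes are close copies, and these 3 were at 0 in 94, 95 and 74 of 107 anti-CD4 clones.

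**Figure D5:**
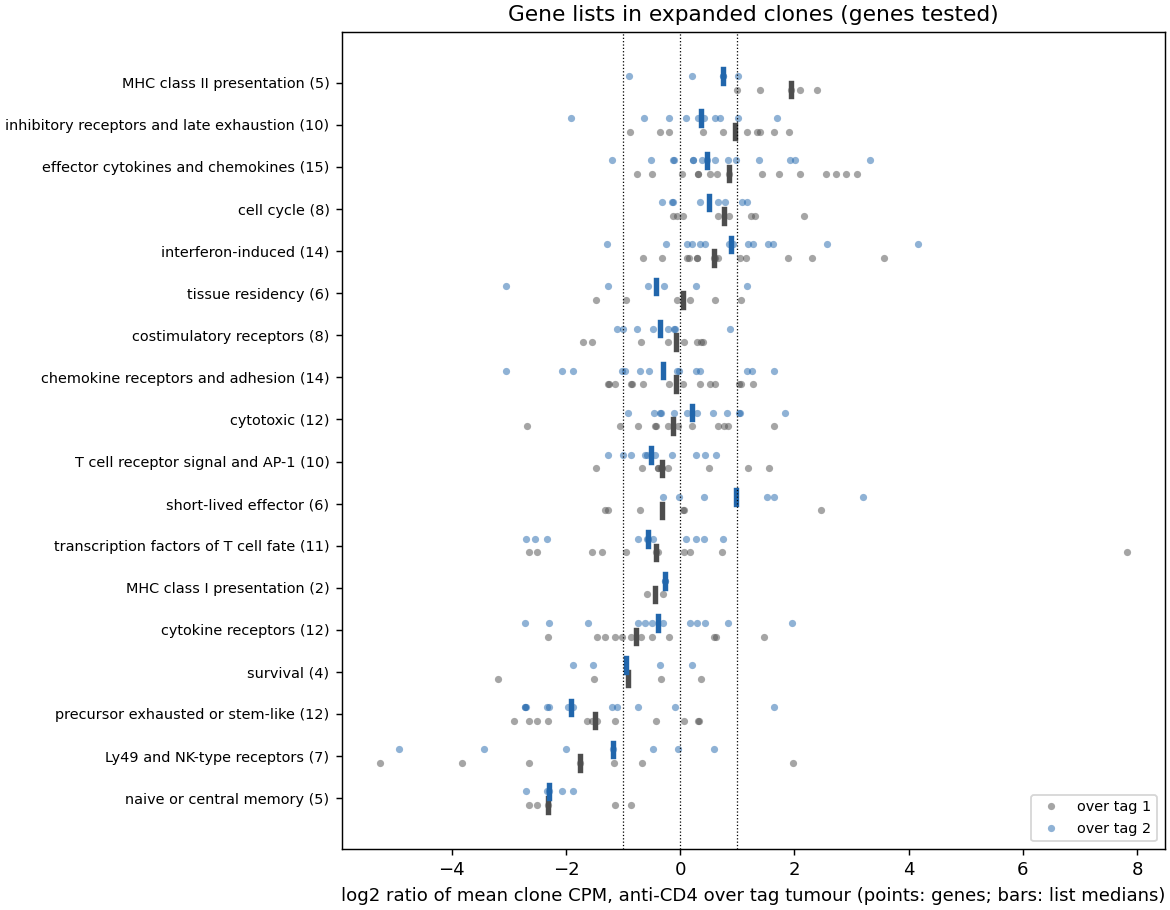
Log2 ratio of mean clone CPM of the anti-CD4 tumour over tag 1 (grey) and over tag 2 (blue) for the genes of each list, 1 point per gene, with the number measured in parentheses and list medians as bars. Among the pathway lists drawn, in 3 both medians are past 2-fold, all lower: naive or central memory, precursor exhausted or stem-like, and Ly49 and NK-type receptors.

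Reads of macrophage genes were more frequent in the anti-CD4 cells. All 9 macrophage or monocyte markers measured, of 16 listed, were higher against both tumours, with medians of 2.47 and 2.26, and tags 5 and 6 also differed by a median of 1.04. The summed level of the markers in a clone ran from 71.9 to 22252 CPM in the anti-CD4 tumour, from 0 to 6912 CPM under tag 1 and from 0 to 4609 CPM under tag 2. This sum includes Ccr2, counted above as a chemokine receptor, so it is not a measure of macrophage reads alone. In anti-CD4 clones with and without the alpha form, Ccr2 had medians of 3595 and 1717 CPM. Lyz2 had 44.2 and 27.3 CPM there, and C1qa 0 and 0. Lyz2, myeloid lysozyme, had a read in 5.53, 0.558 and 0.940% of the expanded cells (3.68, 0.508 and 0.470% thinned) and in 4.21% of the Pmel-1 cells, which shared the anti-CD4 cartridge. It was at 0 in 31 of 107, 56 of 67 and 36 of 55 clones.

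Cells with a read of Lyz2, C1qa, C1qb, Apoe, Cd14 or Fcgr3 were 11.2%, 3.05% and 5.11% of the expanded cells. Without them 22 genes were higher against both tumours in place of 39, all of them among those, and 58 were lower. The genes used to choose these cells had no reads left by construction. Those of them among the 39 were therefore bound to drop out, and their loss shows nothing. Gzmb (1.62 and 1.82), Ccl4 (2.88 and 1.84), Isg15 (2.25 and 1.56) and Ctla4 (1.93 and 1.02) stayed past 2-fold, as did Tcf7 (-2.45 and -2.63). H2-Aa, a class II chain of antigen-presenting cells, had 1.93 and 1.01, with 1.02 between tags 5 and 6, and 0.025 against tag 1 and -0.82 against tag 2 without those cells.

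Of the 4 CD4+ T cell markers measured Ctla4 was higher and Ikzf2 lower against both tumours. Of 4 B cell markers Cd22 and Igkc were lower against both. Ighm had -0.23 and -0.77, and Cd79b went the other way at 1.72 and 0.87. Of 4 NK cell markers Fcgr3, also a macrophage marker, was higher against both. The others were Klre1 (-0.66 and -0.47), Gzma (-1.05 and 0.57) and Eomes (-1.55 and -0.48), and the list medians were -0.86 and 0.05. The markers of CD8+ T cells matched the label. Cd8a was read in every clone, from 6447 to 37319 CPM, from 2736 to 16854 CPM and from 7211 to 25810 CPM in the 3 tumours. Its ratios were 1.05 and 0.09, those of Cd8b1 0.21 and 0.02. Cd4 was at 0 in 91 of 107, 65 of 67 and 50 of 55 clones and was too low to compare.

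The anti-CD4 and tag 2 tumours were also compared within the clones that share the alpha form. In the anti-CD4 tumour these clones had 31 beta CDR3s and 6 beta V genes, and whether they share an antigen was not tested. In the 33 anti-CD4 and 9 tag 2 clones with it, Gzmb ran from 9947 to 64580 CPM (median 29041) and from 152 to 10492 CPM (median 666). The ranges overlapped only at their ends, and the log2 ratio of means was 3.23, beside 1.60 in the other clones. Tcf7 had medians of 109.7 and 2657 CPM and a ratio of -3.12, beside -2.57 in the others. Ccr7 had -4.50 and Xcl1 -3.00, beside -1.39 and -0.78. Pdcd1 stood at -0.21 with the form and 0.43 without.

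Within each tumour some named genes also differed between clones with the form and the rest. Of 109 named genes 28 were 2-fold or more lower with the form in the anti-CD4 tumour and 22 in the tag 2 tumour. By the same rule 1 and 7 were higher, 0 of them in both. Foxp3, at -2.70 in the anti-CD4 tumour, was left out, since it was at 0 in the 9 tag 2 clones with the form. Cd4, too low to compare, was counted (-1.29 and 1.25). The share over all genes was not computed. The 10 lower in both were Lyz2, C1qa, C1qb, H2-Ab1, H2-Eb1, Clec10a, Cd79b, Klra7, Maf and Cx3cr1, mostly genes of other cell types. Maf had -1.77 and -1.73 and Cx3cr1 -1.96 and -1.14. Their tag 2 clone medians were higher with the form (6.76 against 0.82 and 8.73 against 4.86 CPM). In the anti-CD4 tumour the clones with the form had lower Ccr7 (log2 ratio of means -2.94) and Xcl1 (-1.99), and Gzmb was at 0.28. In the tag 2 tumour they had lower Gzmb (-1.35), Gzma (-4.23) and Ccl5 (-2.19), with Ccr7 at 0.17 and Xcl1 at 0.23. Cells with a macrophage-marker read were 10.5% with and 12.2% without the form in the anti-CD4 tumour, and 5.47% and 4.96% under tag 2. The difference between the tumours in these contrasts was not tested.

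Clones of 1 cell, 1097, 1586 and 7049 cells, were compared between the same tumours by reads summed over all such cells. The ratios of expanded clones beside them are of means over clones, an unlike measure. For Tcf7 the single-cell ratios were -0.46 and -0.71, beside -2.51 and -2.69 in expanded clones, and for Il7r -0.84 and -1.28, beside -2.32 and -2.30. Cxcr5 had -0.06 and -0.08 in single cells, beside -2.90 and -2.72. Gzmb had 1.72 and 2.93, Ccl4 2.03 and 2.77, Isg15 2.59 and 2.36 and Ctla4 1.86 and 2.55. Tcf7, Il7r and Cxcr5 thus lay closer together between tumours in single cells. Their single-cell ratios lay outside the range of their expanded ratios over the alternatives, which include all cells summed. For Gzmb and Isg15 the single-cell ratios against tag 1 lay within that range (1.45 to 2.01 and 1.74 to 3.65). Against tag 2 they lay just above it (1.61 to 2.91 and 1.16 to 2.28). Ccl4 lay below its range against tag 1 (2.66 to 3.62) and just above it against tag 2 (1.77 to 2.75). Ctla4 lay within its range against tag 1 (1.84 to 2.39) but well above it against tag 2 (0.93 to 1.19). These differences between expanded and single cells were not tested.

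The expanded clones were also looked up in the bulk beta chain repertoires of the draining lymph nodes, whose tables list no clone under 10 reads. Of the anti-CD4 clones 82 of 107 were listed in that mouse's node (76.6%, exact 95% interval 67.5 to 84.3). Of the tag 1 clones 34 of 67 were in the node titled control (50.7%, 38.2 to 63.2), and of the tag 2 clones 41 of 55 in the node whose title names anti-PD-L1 (74.5%, 61.0 to 85.3). The latter 2 pairings rest on the sharing itself, and for both nodes title and treatment label contradict each other. The nodes were read to unlike depth: 42 reads were 0.00333% of the anti-CD4 node, and 34 reads were 0.0104% of the node titled control. The floor of 10 reads thus stood at a higher share in the latter, so 76.6% and 50.7% are not directly comparable. In the nodes of other mice at most 6 expanded clones of a tumour were listed. Over clones listed in the matched node alone, 43 genes were higher and 52 lower, 36 and 47 of them the same genes.

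Tags 1 and 2 were not fully separate. Each of 8 clones had 10 or more cells under both, 2490 cells under tag 1 and 1451 under tag 2 in all. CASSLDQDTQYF, the leading tag 1 clone, had 1485 and 54 cells. Without these clones 38 genes were higher and 56 lower in the anti-CD4 tumour, 36 and 54 of them the same genes. Of the anti-CD4 clones, 1 was also expanded under tag 1 (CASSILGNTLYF, with the shared alpha form in both) and 0 under tag 2. Between the cartridges 376 cell index numbers recurred, but these numbers carry no sequence.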

How the data were processed

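Members and gene lists were chosen with earlier results of these data known. Tumour CD8+ T cells were captured on 2 cartridges with a targeted panel. The authors deposited a matrix of read counts for each cartridge, and the deposited receptor tables give each cell's leading alpha and beta chain with its estimated count of reads (whole but for floating-point error). The node tables are the authors' deposited read counts of beta chain clones. Per the submitters' processing notes the build was GRCm38 and the tools were Bowtie2 2.4.2, cutadapt 3.2 and 3.4 and R 3.6.3; the receptor caller is not given in the sources used here. Cells called doublets by the deposited tables (292 and 408) or untagged (74 and 0) were left out, with no further doublet call, as was the Pmel-1 clone (10 cells under tags 5 and 6).

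Clone CPM used the 2124 genes of both matrices. Tags 5 and 6 were compared over 92 clones with at least 5 cells under each. Named genes were the 10 higher and 10 lower genes with the largest smaller ratio of the 2 comparisons (mean of at least 50 CPM, absolute ratio under 0.5 between tags 5 and 6), up to 5 members of each list with the highest mean, and 11 fixed genes; other list members are named where a list's count turns on them. Values of some genes are not reported here. A planned comparison of the Pmel-1 clone between cartridges was not possible, since 618 of its cells lay in the anti-CD4 cartridge and 0 under tags 1 and 2. Intervals are exact Clopper-Pearson. Coordinates are from RefSeq GRCm38.p6. The ratio script was tested on simulated data. Python 3.11.15, numpy 2.4.6, pandas 2.3.3, scipy 1.17.1, matplotlib 3.10.9, R 4.3.3, edgeR 4.0.16 (TMM) and DESeq2 1.42.0 (median of ratios, scaling only) were used. Alternatives changed the averaging, scaling, clone size, tag, depth, filter and fold.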

Additional observations from a re-analysis of the deposited data

How the results depend on the processing

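With 1 mouse in each group these values describe the mice, and p-values were not computed. No paired analysis was possible because each group is 1 mouse. No gene counted against both tumours was counted in the opposite direction under any alternative tried. Of 39 higher and 57 lower genes, the counts were 22 higher without cells that had a macrophage-marker read (chosen after seeing the data), 345 and 540 with no filter on low levels, 24 higher at 50 CPM or more, 65 higher at 1.5-fold, and 13 and 12 at 4-fold. In the count of 22 the marker genes themselves could not remain, since all cells with their reads were left out. TMM scaling gave 45 and 46.

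Of 123 log2 ratios of named genes under 2-fold, 48 changed sign under at least 1 alternative, so the directions of those are not firm. Of 115 at 2-fold or more 6 did, which were Klra3 and Gzma against tag 1, Apoe against both, H2-Aa against tag 2 and H2-Eb1 against tag 1. H2-Aa against tag 2 was -0.33 in clones of 10 to 49 cells and -0.82 without macrophage-marker cells. H2-Eb1 against tag 1 was -0.16 without those cells, and Gzma against tag 1 was 0.37 in clones of 20 or more cells. With means of log2(CPM + 1) and log2(CPM + 10), Klra3 against tag 1 was 0.47 and 0.11, and Apoe was -0.26 and -0.049 against tag 1, -0.79 and -0.22 against tag 2. Apoe against tag 1 was also -0.34 in clones of 5 or more cells, -0.041 with tag 6 only and -0.54 with thinned cells. The cause was not tested. Reads are not molecules, so low genes are less certain than their counts show.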

Other observations

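Foxp3, the factor of regulatory T cells, was concentrated in a few of the expanded CD8+ clones. It had means of 382, 1.68 and 226 CPM but was at 0 in 76 of 107, 65 of 67 and 53 of 55 clones, so the means rest on a few clones, picked here after their values were seen. An anti-CD4 TRBV13-3 clone of 16 cells, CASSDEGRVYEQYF, had 14914 CPM, with a read in 16 cells, and an anti-CD4 TRBV14 clone of 26 cells had 16303 CPM, with a read in 25. Both had Cd4 at 0 and Cd8b1 at 4958 and 2382 CPM. They also held the highest Gzmb of the anti-CD4 tumour, 95658 and 99582 CPM, and its highest Ctla4, 63327 and 53678 CPM. Under tag 2 a clone of 10 cells had Foxp3 at 12453 CPM, with Ctla4 at 8871 CPM.

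Clones within each tumour varied along some of the genes that differed between tumours. Across clones Tcf7 and Gzmb ran in opposite directions, with Spearman's rho of -0.63 over 107 anti-CD4, -0.49 over 67 tag 1 and -0.58 over 55 tag 2 clones. Gzmb and Entpd1 ran together (0.45, 0.45 and 0.63). Pdcd1 and Ctla4 had -0.09, 0.74 and 0.32. These are descriptions over clones that share a library and differ in depth.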
